A study of Homo sapiens with 4 samples.

Results

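The collagen genes of the human genome were examined for sites bound by tagged Smad2 and Smad3. The cells were MDA-MB-231, an established line from a human breast cancer. Members were the 44 protein-coding genes of GENCODE release 44 that are named COL, a number, A and a number, out of 20033 protein-coding genes. They fall into 11 fibrillar and 33 other collagens. A peak was counted for a gene where it overlapped the span of the gene widened by 10 kb on each side. Peaks within 3 kb of any annotated transcript start of the gene were called promoter peaks, the other peaks in the unwidened span gene body peaks, and the rest flank peaks.

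The cells carried a bacterial artificial chromosome (BAC) with Smad2 or Smad3 fused to the LAP tag, which contains GFP, beside their endogenous Smads. Both lines were Geneticin-selected and GFP-sorted populations made from the same parental line. Chromatin was precipitated with an antibody to GFP and sequenced (ChIP-seq), without treatment or after 10 ng/mL TGFβ-1 for 2 h, with 1 library for each of the 4 conditions. There are no replicates, so no test between conditions was possible and no p-value is given.

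Collagens are trimeric proteins of the extracellular matrix, each built from 3 chains with long triple-helical stretches. Fibrillar collagens form the banded fibrils of skin, bone and tendon, type IV collagens form the network of basement membranes, and FACIT collagens decorate fibril surfaces. TGFβ signalling through receptor-activated Smads is a known inducer of matrix genes, and collagen genes such as COL1A2 and COL7A1 are textbook targets in fibroblasts. Smad3 binds DNA at the short Smad box, which holds the letters CAGAC, and at GC-rich sites. Counts of these letters in peaks do not show which protein touched the DNA.

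The lists differ in length, with 11266 peaks in the list labelled LAP-Smad2 untreated, 3511 in the list labelled LAP-Smad3 untreated, 26828 for LAP-Smad2 and 62551 for LAP-Smad3 after TGFβ-1. The 2 latter lists are called the Smad2 list and the Smad3 list below. Library depths are unknown beyond a stated minimum, so counts of the 2 lists were read against each list's own background. Sample labels and deposited list names disagree on which Smad each untreated list belongs to. Within 100 kb of SMAD2, the list labelled LAP-Smad3 untreated held 20 peaks and the list labelled LAP-Smad2 untreated 2, while the Smad2 list held 27 and the Smad3 list 4. Near SMAD3 the counts were 1, 0, 1 and 53 in the same order. The untreated lists are therefore called by label only, and their difference is not interpreted as one between Smads or treatments.

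The sequences shown first are promoter peaks that were shared by the 2 treated lists or had the highest −log10 q of the collagen promoter peaks in their list, followed by the strongest peaks of members on which the results turn. The latter were chosen after their values were seen. Each is the plus strand of hg38, 5′ to 3′, in the 200 bp around the centre of the peak, in lower case, with CAGAC and GGCGC on either strand in capitals. COL12A1 encodes the chain of a FACIT collagen, and the first line is its Smad3 peak with the highest −log10 q among collagen promoter peaks, at chr6:75207767-75207966. The next line is the overlapping Smad2 peak at chr6:75207825-75208024.
COL12A1, Smad3 list: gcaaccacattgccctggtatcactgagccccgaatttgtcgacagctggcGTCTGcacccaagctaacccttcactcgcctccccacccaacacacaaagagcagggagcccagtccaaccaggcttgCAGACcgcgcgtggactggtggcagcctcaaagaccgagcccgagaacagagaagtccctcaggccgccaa
COL12A1, Smad2 list: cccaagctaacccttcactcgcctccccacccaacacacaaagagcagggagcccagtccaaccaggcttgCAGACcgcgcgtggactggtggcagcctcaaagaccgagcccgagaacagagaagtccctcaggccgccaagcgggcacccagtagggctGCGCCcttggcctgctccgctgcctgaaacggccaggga

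COL2A1 encodes the chain of the cartilage fibrillar collagen and had overlapping peaks of both lists upstream of its start. The Smad2 window is chr12:48005314-48005513 and the Smad3 window chr12:48005485-48005684. Both lie partly in annotated exons of a long non-coding RNA gene.
COL2A1, Smad2 list: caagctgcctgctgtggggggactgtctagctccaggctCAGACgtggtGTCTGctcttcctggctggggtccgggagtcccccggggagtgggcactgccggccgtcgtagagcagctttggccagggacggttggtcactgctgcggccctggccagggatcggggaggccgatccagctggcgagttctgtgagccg
COL2A1, Smad3 list: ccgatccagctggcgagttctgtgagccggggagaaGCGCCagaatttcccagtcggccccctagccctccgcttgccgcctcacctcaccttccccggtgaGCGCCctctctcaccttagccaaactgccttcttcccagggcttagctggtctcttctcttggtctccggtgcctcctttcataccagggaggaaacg

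COL5A1 and COL23A1 held the highest-scored Smad2 peaks of the collagens, the former among promoter peaks in intron 6 at chr9:134729479-134729678, and the latter among all collagen peaks in intron 1 at chr5:178585548-178585747. COL5A1 encodes a chain of the minor fibrillar collagen type V, and COL23A1 a transmembrane collagen. Both windows are tandem repeats: 88.2% of bases in the COL5A1 window equal the base 56 bp further on, and 85.8% in the COL23A1 window equal the base 31 bp further on.
COL5A1, Smad2 list: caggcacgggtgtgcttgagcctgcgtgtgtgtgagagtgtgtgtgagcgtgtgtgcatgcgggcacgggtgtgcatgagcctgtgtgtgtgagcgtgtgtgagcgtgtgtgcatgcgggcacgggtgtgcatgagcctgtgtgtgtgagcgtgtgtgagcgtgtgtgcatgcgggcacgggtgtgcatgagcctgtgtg
COL23A1, Smad2 list: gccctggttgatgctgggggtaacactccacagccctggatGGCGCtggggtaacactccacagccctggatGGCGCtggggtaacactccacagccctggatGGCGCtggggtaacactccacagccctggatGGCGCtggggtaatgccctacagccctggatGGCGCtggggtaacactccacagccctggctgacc

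For the Smad3 list, the strongest COL5A1 peak lies in intron 4 at chr9:134706003-134706202, that of COL4A2 in intron 3 at chr13:110343452-110343651, that of COL7A1 over coding exon 7 at chr3:48592790-48592989, and that of COL1A1 upstream of the gene at chr17:50209888-50210087. The COL1A2 peak over the transcript start is shown at chr7:94394740-94394894, without the untranslated bases of the first exon.
COL5A1, Smad3 list: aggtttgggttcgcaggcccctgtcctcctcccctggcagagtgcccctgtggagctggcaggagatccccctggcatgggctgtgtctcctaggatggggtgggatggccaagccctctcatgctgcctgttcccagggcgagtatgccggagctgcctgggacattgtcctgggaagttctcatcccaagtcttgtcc
COL4A2, Smad3 list: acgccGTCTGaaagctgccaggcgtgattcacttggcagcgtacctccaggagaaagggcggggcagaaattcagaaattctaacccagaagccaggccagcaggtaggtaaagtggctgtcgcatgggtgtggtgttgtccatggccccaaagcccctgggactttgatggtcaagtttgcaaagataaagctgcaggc
COL7A1, Smad3 list: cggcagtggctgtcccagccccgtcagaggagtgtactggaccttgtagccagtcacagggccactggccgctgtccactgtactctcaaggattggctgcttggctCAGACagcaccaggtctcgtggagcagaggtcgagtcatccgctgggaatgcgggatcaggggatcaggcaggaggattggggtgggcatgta
COL1A1, Smad3 list: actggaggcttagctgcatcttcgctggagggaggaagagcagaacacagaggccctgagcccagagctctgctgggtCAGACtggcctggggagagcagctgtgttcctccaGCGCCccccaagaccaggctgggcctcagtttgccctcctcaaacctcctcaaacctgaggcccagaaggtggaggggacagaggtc
COL1A2, Smad3 list: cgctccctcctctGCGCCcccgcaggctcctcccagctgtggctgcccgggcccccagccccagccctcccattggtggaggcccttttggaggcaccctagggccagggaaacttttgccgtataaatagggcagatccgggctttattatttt

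After TGFβ-1, every one of the 44 collagen genes had at least 1 peak in a treated list, as did 83.2% of all protein-coding genes and 92.7% of genes of like length, as defined below. The Smad3 list held a peak at 42 genes (95.5%, Wilson 95% interval 84.9 to 98.7), and 74.3% of all protein-coding genes had one. The 2 exceptions were COL3A1 and COL5A3, fibrillar chains of types III and V. In the Smad2 list, 30 genes had a peak (68.2%, 53.4 to 80.001), beside 55.9% of all genes. Collagen genes are long, with a median of 145 kb, and longer genes hold more peaks at the same density. Each collagen was therefore set beside the 200 other protein-coding genes nearest to it in length, of which 87.8% on average had a peak in the Smad3 list and 67.9% in the Smad2 list. The share of collagen genes with a Smad2 peak was thus within counting error of that of length-nearest genes, and the Smad3 background lay inside the interval of the collagens too. These intervals cover counting error only.

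**Figure D1:**
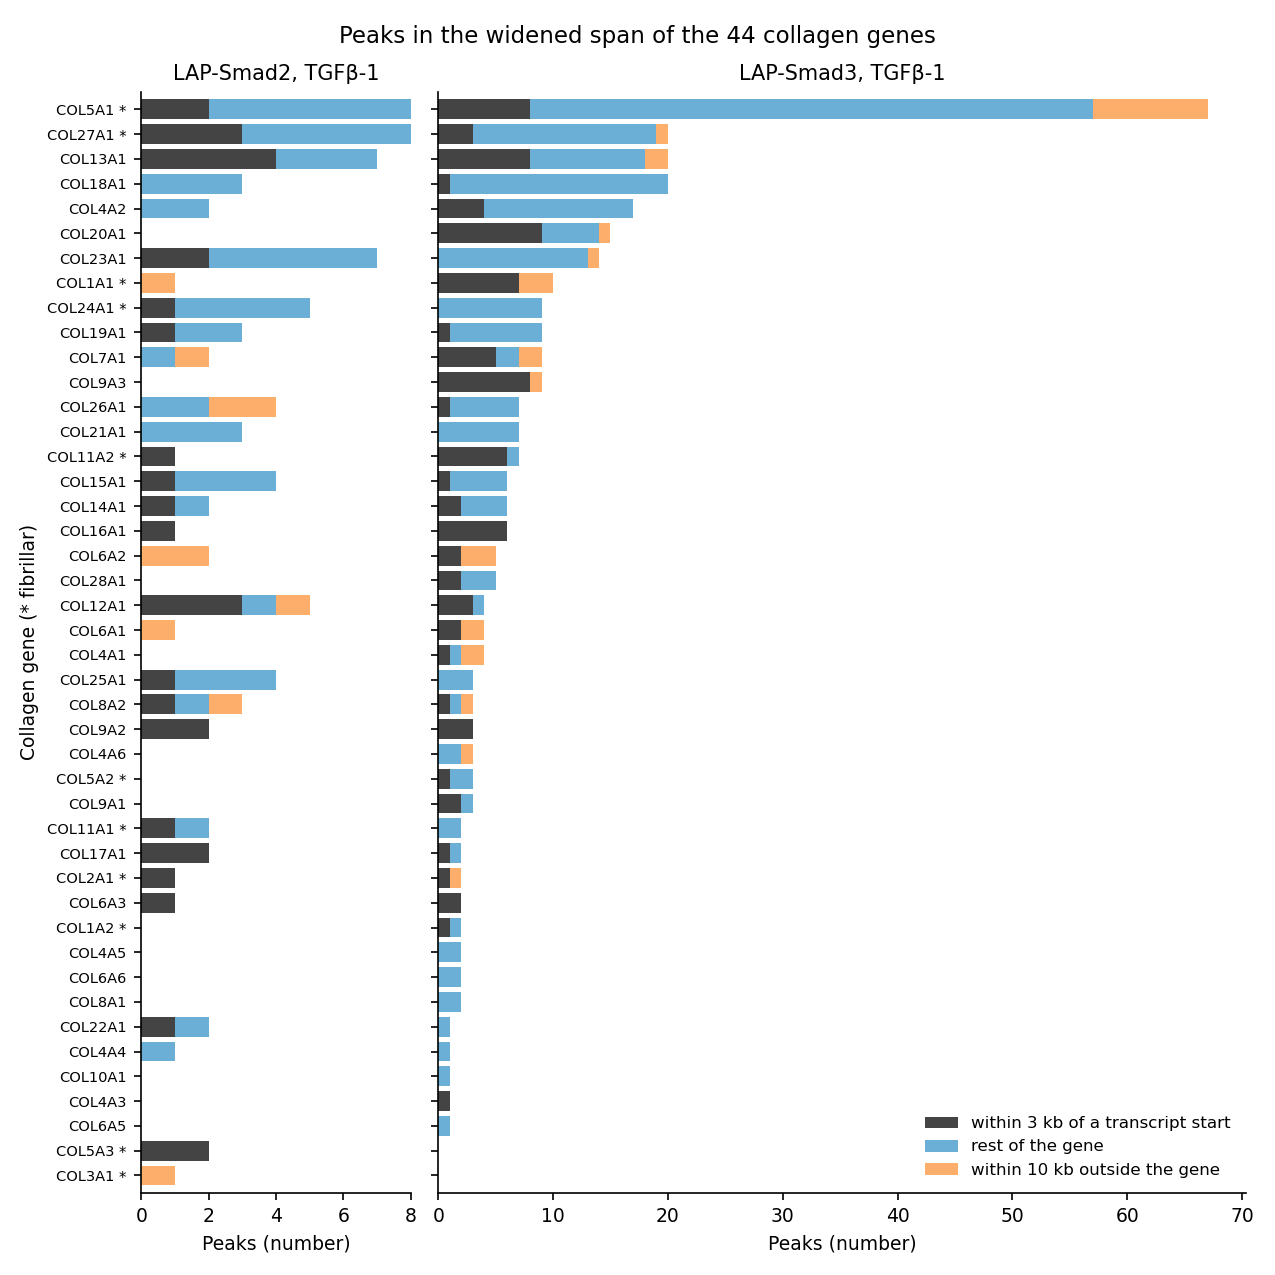
Number of peaks in each collagen gene (rows, fibrillar genes with an asterisk) in the Smad2 list (left) and the Smad3 list (right), on linear axes of different length, coloured by place. COL5A1 stands apart in the Smad3 list with 67 peaks, and the next genes, COL27A1, COL13A1 and COL18A1, have 20 each.

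By number of peaks, the Smad3 list departed from the length-nearest genes and the Smad2 list did so less. Smad3 peaks in the widened collagen genes numbered 317, or 319 with the 2 peaks that lie in the spans of neighbouring COL4 genes counted for both. Length-nearest genes would hold 171 on average, a ratio of 1.86 (95% Poisson interval of the count 1.66 to 2.08). For Smad2 there were 90 peaks beside 75.3, a ratio of 1.20 (0.961 to 1.47). Peak density was 4.21 per 100 kb of widened collagen span in the Smad3 list, beside 2.86 over all genes, and 1.19 in the Smad2 list, beside 1.28. COL5A1 alone gave 67 of the Smad3 peaks, and without it the ratio was 1.51. Set beside genes nearest in both length and GC content of the span, the Smad3 ratio was 1.38, and without COL5A1 1.17. The gap to other genes thus depended on 1 member and on the GC content of the genes compared.

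COL5A1 (ENSG00000130635.17, chr9:134641803-134844843, plus strand) is 203 kb long. It held 67 Smad3 peaks, namely 8 promoter, 49 gene body and 10 flank peaks. Its 200 length-nearest genes held 4.61 on average, and none of them had as many. Of all 20033 protein-coding genes, 4 had more peaks in the Smad3 list, and 171 had a higher density than the 30.0 per 100 kb of COL5A1. Smad2 peaks numbered 8 (2 promoter and 6 body), beside 2.13 in length-nearest genes, and 104 genes had more. The list labelled LAP-Smad3 untreated held 2, and the list labelled LAP-Smad2 untreated none.

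The Smad3 peaks of COL5A1 were spread over the gene rather than gathered at its start. They fell in 25 different introns, with 55 of the 67 in introns and 10 of those in intron 1. Neighbouring peak centres were a median of 2.22 kb apart, from 0.340 to 24.4 kb, and 12 of the gaps were under 1 kb. Fold enrichment over the local background, as the authors' peak caller gave it, ran from 3.35 to 9.38 with a median of 4.90. These peaks were of middling score, with a median percentile of 42.6 by −log10 q within their list, and 5 of the 67 were in its top 10%. With q at most 0.01, 66 of the 67 remained. When the Smad3 list was shortened to its 26828 strongest peaks, the length of the Smad2 list, COL5A1 kept 20 peaks, against 8 in the Smad2 list. The region around the gene was dense as well, with 18.3 Smad3 peaks per 100 kb in the 1 Mb upstream of the widened span and 10.7 in the 1 Mb downstream. The part of these surroundings in the count of the gene was not tested.

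**Figure D2:**
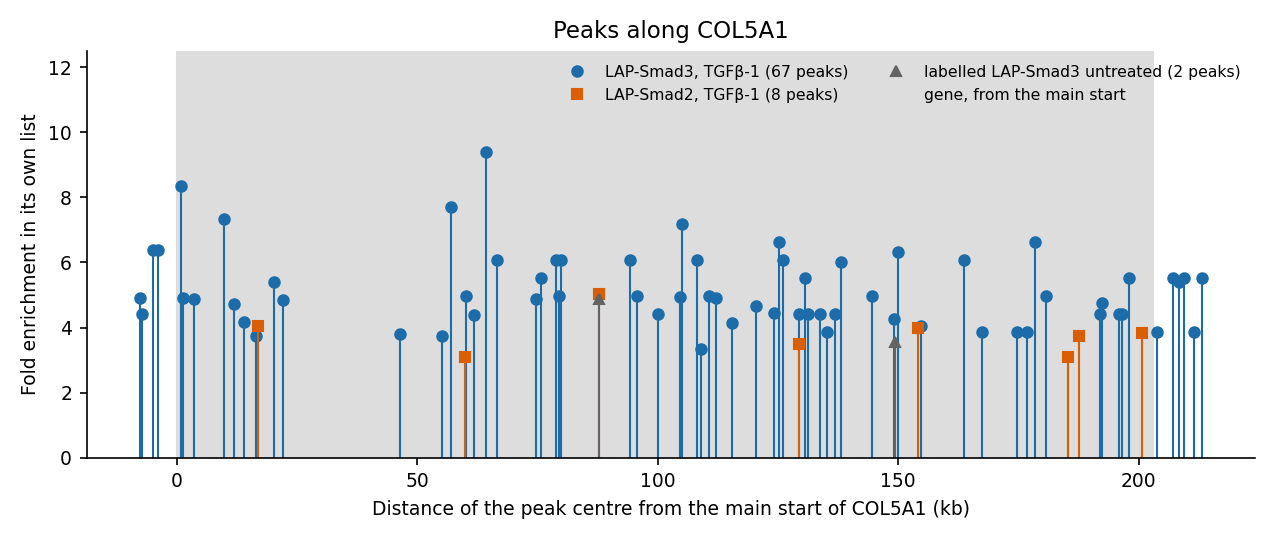
Peaks along COL5A1 by the distance of their centre from the main transcript start (kb) and their fold enrichment, which is not on a common scale between lists. Smad3 peaks (circles) run over the whole gene, and the 8 Smad2 peaks (squares) coincide with a Smad3 peak at 1 place.

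Of the 8 Smad2 peaks in COL5A1, 1 overlapped a Smad3 peak, in intron 25. The tandem repeat in intron 6 shown above carried the strongest Smad2 peak, with fold 5.03 and −log10 q 15.6, and it also carried the stronger of the 2 peaks in the list labelled LAP-Smad3 untreated, with fold 4.86 and −log10 q 11.9. No Smad3 peak overlapped it. The Smad box letters CAGAC, on either strand, were in 41 of 67 COL5A1 Smad3 windows (61.2%, Wilson 49.2 to 72.0), whereas 39.1% of all Smad3 peaks in widened genes held them at the same GC content.

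At the promoters, the share of collagen genes with a Smad3 peak was above that of length-nearest genes. In the full list and with any annotated start, the share of genes nearest in length and span GC lay inside its interval. In the shortened list it lay just below the interval (30.6% against a lower bound of 31.7%). It did so at the main start alone too (25.68% against 25.72%). Promoter peaks of Smad3 were found at 29 genes (65.9%, 51.1 to 78.1), beside 40.2% of all genes and 44.01% of length-nearest genes and 54.0% of genes nearest in length and span GC. In the Smad3 list shortened to the length of the Smad2 list, 20 genes had one (31.7 to 59.9%), beside 20.8% of all genes, 22.9% and 30.6%. Smad2 promoter peaks were found at 20 genes (45.5%, 31.7 to 59.9), beside 35.4% of all genes and 42.4% of length-nearest genes. The 93 Smad3 promoter peaks were 2.66 times those of length-nearest genes (2.15 to 3.26). They were 1.62 times those of genes nearest in length and span GC (1.31 to 1.99). Collagen genes have many annotated starts, and most of these promoter peaks lay by an internal one: only 32 of the 93 Smad3 promoter peaks and 15 of the 32 Smad2 promoter peaks had their centre within 3 kb of the main start. Counted against the main start alone, 17 genes had a Smad3 peak there (38.6%, 25.7 to 53.4), beside 25.2% of all genes, 20.5% of length-nearest genes and 25.7% of those nearest in length and span GC. For Smad2 there were 14 (31.8%), beside 28.5%, 32.1% and 31.5%. COL1A1 illustrates this, since 99.9% of its span lies within 3 kb of 1 of its 13 annotated starts. The share of genes with a gene body peak was 75.0% for Smad3, beside 39.2% of all and 71.1% of length-nearest genes, and 43.2% for Smad2, beside 20.9% and 41.5%.

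**Figure D3:**
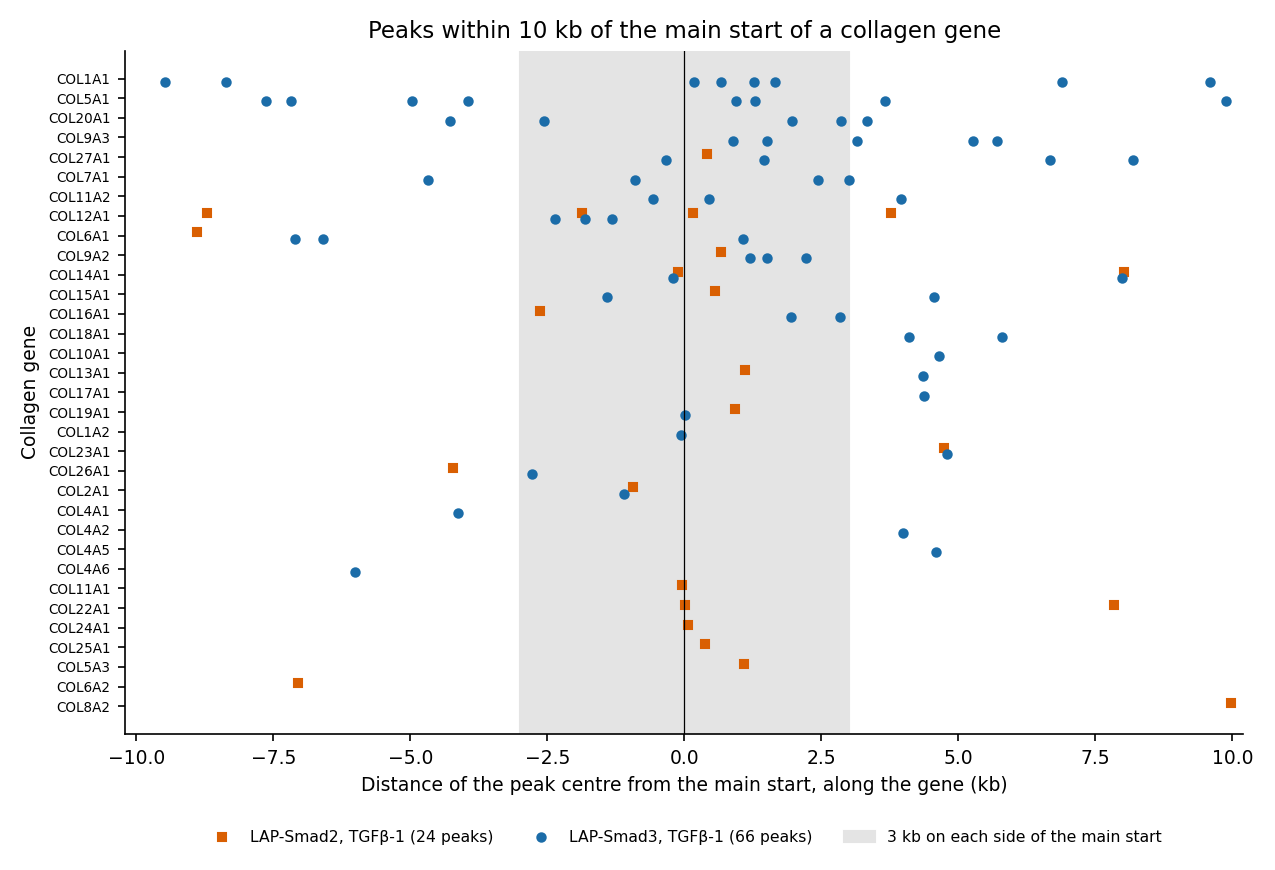
Peaks of the 2 treated lists within 10 kb of the main transcript start of a collagen gene, by distance along the gene (kb), for the 33 genes that have one. Smad2 peaks (squares, 24) and Smad3 peaks (circles, 66) fall at the same place in few genes, among them COL12A1, COL14A1, COL2A1 and COL23A1.

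Promoter peaks of both treated lists were found at 14 collagen genes (31.8%, beside 18.2% of all genes). These were COL2A1, COL5A1, COL11A2 and COL27A1 among the fibrillar collagens, and COL6A3, COL8A2, COL9A2, COL12A1, COL13A1, COL14A1, COL15A1, COL16A1, COL17A1 and COL19A1 among the others. At 3 of the 14, namely COL2A1, COL12A1 and COL14A1, a Smad2 and a Smad3 promoter peak overlapped. In another 5, COL8A2, COL9A2, COL13A1, COL19A1 and COL27A1, the closest peaks were 255 to 650 bp apart, and in the remaining 6 between 1500 and 24221 bp. By peak, 3 of 32 Smad2 promoter peaks of collagens (9.38%, 3.24 to 24.2) overlapped a Smad3 peak, beside 12.9% over all promoters. The other way, 3 of 93 (3.23%, 1.10 to 9.06) overlapped a Smad2 peak, beside 8.33%. Both backgrounds lay inside these intervals. Smad3 alone had a promoter peak at 15 genes (34.1%, beside 22.0% of all genes). Smad2 alone had one at 6 (13.6%, beside 17.1%), namely COL5A3, COL11A1, COL22A1, COL23A1, COL24A1 and COL25A1. The other 9 had none (20.5%, beside 42.6%). The shares of all genes given here were not matched to the collagens in length, span GC or number of starts.

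COL12A1 (chr6:75084326-75206267, minus strand) held a cluster of peaks upstream of its main start. Its 3 Smad3 promoter peaks were centred at -1315, -1814 and -2367 bp from this start, with folds of 4.71, 8.82 and 5.02. A Smad2 peak was centred at -1872 bp with fold 4.24, inside this cluster, and the shared stretch holds the CAGAC copy common to both printed windows. The gene held 5 Smad2 peaks in all, beside 1.88 on average in length-nearest genes, of which 16 of 200 held as many. Its span has a GC content of 36.9%, and genes nearest in length and span GC held 1.19 on average.

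Among the type I, III and VII collagens, which are the classic fibroblast targets of TGFβ, COL1A1 and COL7A1 held more Smad3 peaks than nearly all genes of their length, and their Smad2 counts were near those of such genes. COL1A1 (chr17:50184101-50201632, minus strand), the major chain of type I collagen, held 10 Smad3 peaks, beside 1.68 in length-nearest genes. Only 2 of the 200 held as many. Of these, 4 were centred 174 to 1651 bp downstream of the main start, 1 over coding exon 1 and 3 in intron 1, with folds from 3.77 to 5.52. The strongest lay at -8357 bp from the main start, with fold 6.30. Smad2 had a single peak in the downstream flank, at 18134 bp from the start, beside 0.725 in length-nearest genes.

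COL7A1 (chr3:48564073-48595329, minus strand), the anchoring fibril collagen of skin, held 9 Smad3 peaks beside 1.90 in length-nearest genes. The strongest was over coding exon 7 with fold 7.28, and another was centred at -908 bp from the start with fold 5.52. Smad2 had 2 peaks beside 1.0, in coding exon 73 and the downstream flank. COL1A2 (chr7:94394895-94431227), the partner chain of COL1A1, held 2 Smad3 peaks of fold 6.62, of which 1 was centred at -55 bp from the start and the other lay over coding exon 19. No Smad2 peak was found there. COL3A1 (chr2:188974373-189012746), the chain of type III collagen, had only a Smad2 peak of fold 3.49 in its downstream flank.

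Set against genes of like GC content, these counts were less distinct. Genes nearest in length and span GC held 3.42 Smad3 peaks for COL1A1 and 5.36 for COL7A1, and 3 and 33 of the 200 held as many as the collagen. For COL5A1 the mean was 16.6, and 4 of the 200 held 67 or more.

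The network collagens had few Smad2 peaks. The 9 genes of types IV, VIII and X held 6, beside 16.7 in length-nearest genes (ratio 0.359, Poisson interval 0.132 to 0.782). Of the 9, 3 had any (33.3%, Wilson 12.1 to 64.6), beside 55.9% of all genes and 69.4% of length-nearest genes. The share was 72.7% in genes nearest in length and span GC. The 34 Smad3 peaks of these 9 genes were close to the 37.9 of length-nearest genes, but 17 of the 34 were in COL4A2. Length-nearest genes of COL4A2 held 4.675 on average, and those nearest in length and span GC 9.41. COL8A2 also held more than its length-nearest genes (3 beside 1.74), and the other network genes each held fewer. COL4A2 (chr13:110305812-110513209) and COL4A1 (chr13:110148963-110307157) encode the chains of the common basement membrane network and are read in opposite directions from main starts 127 bp apart. The other type IV genes form like pairs, COL4A3 with COL4A4 at 419 bp and COL4A5 with COL4A6 at 1416 bp. No list held a peak within 3 kb of the main starts of any of these 3 pairs. COL4A2 peaks of Smad3 began 3995 bp downstream in intron 3, where the peak also lies in the upstream flank of COL4A1. The strongest was the intron 3 peak shown above, with fold 9.93 and the 98.6th percentile of the list. COL4A1 held 4 Smad3 peaks and no Smad2 peak.

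Fibrillar collagens held more peaks than length-nearest genes in both treated lists, and COL5A1 carried much of this. The 11 genes held 122 Smad3 peaks beside 39.3, a ratio of 3.10 (2.58 to 3.70), which was 1.58 without COL5A1 and 2.09 beside genes of like length and GC content. The other 33 collagens held 197 beside 132, a ratio of 1.49 (1.29 to 1.72), which was 1.14 beside genes of like length and GC content. For Smad2 the ratios were 1.69 (1.13 to 2.43) and 1.05 (0.802 to 1.35). The fibrillar Smad2 ratio was 1.47 (0.986 to 2.11) beside genes of like length and GC content, 1.399 without COL5A1, and 1.29 with COL24A1 and COL27A1 counted among the other collagens. By share of genes, 9 of 11 fibrillar genes (81.8%) had a Smad3 peak, beside 84.2% of length-nearest genes, and 33 of 33 in the other class, beside 88.9%. For Smad2 the shares ran the other way, with 9 of 11 fibrillar genes, beside 65.0%, and 21 of 33 others (63.6%), beside 68.9%. The difference between the classes was not tested.

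Of the further classes, the 2 multiplexin genes COL15A1 and COL18A1, basement membrane collagens with interrupted helices, held 26 Smad3 peaks beside 7.22. COL18A1 (chr21:45405165-45513720) gave 20 of these, 19 of them in the gene body, and held 3 Smad2 peaks. The 4 transmembrane genes held 20 Smad2 peaks beside 8.19 (ratio 2.44, 1.49 to 3.77) and 39 Smad3 peaks beside 21.4. COL13A1 gave 7 and 20 of these and COL23A1 7 and 14. COL27A1 (chr9:114155537-114312511), a fibrillar chain on the same chromosome as COL5A1, held 8 Smad2 and 20 Smad3 peaks, beside 1.955 and 4.25 in length-nearest genes and 3.76 and 10.96 in genes nearest in length and span GC. COL24A1, another fibrillar chain, held 5 and 9, beside 2.75 and 7.36. The 10 FACIT and related genes held 63 Smad3 peaks beside 38.6 and 18 Smad2 peaks beside 16.5, of which COL12A1 held 5. COL9A3 and COL20A1 of this class held 9 and 15 Smad3 peaks, beside 4.43 and 6.91 in genes nearest in length and span GC. Of these 200 genes, 21 and 18 held as many. The 1 Mb on each side held 18.15 and 18.55 Smad3 peaks per 100 kb, beside 20.04 and 24.32 in the widened genes. Neither COL9A3 nor COL20A1 held a Smad2 peak. Of all genes, 55.9% had a Smad2 peak, so a lack of one is common. The 5 type VI genes, which form beaded filaments, held 14 Smad3 peaks beside 15.8 and 4 Smad2 peaks beside 7.68. Beside genes nearest in length and span GC, the ratio in transmembrane genes was 1.61 (0.983 to 2.49) for Smad2 and 1.16 (0.825 to 1.59) for Smad3. By the same background, the Smad2 ratio in network genes was 0.338 (0.124 to 0.735). The Smad3 ratio was 1.44 (0.939 to 2.11) in multiplexin genes and 1.31 (1.01 to 1.68) in FACIT and related genes.

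Peak density rose with the GC content of the gene. Over the 44 genes, Spearman's rho between span GC content and peaks per 100 kb was 0.746 for Smad3 (Pearson's r 0.735) and 0.524 for Smad2 (0.569). These are descriptions over genes that share a library, with no p-value. Over all 20033 genes rho was 0.440 and 0.235. The 15 genes of lowest GC content (33.2 to 38.7%) held 1.56 Smad3 peaks per 100 kb, the 14 in the middle 2.84, and the 15 of highest GC content (52.3 to 64.7%) 15.6. For Smad2 the densities were 0.678, 1.06 and 3.03. COL5A3 was an exception in the high group, with a GC content of 52.3% and no Smad3 peak. Smad3 density of the genes also went with that of the 1 Mb on each side (rho 0.784). By count, 28 of the 44 genes were denser than these surroundings in the Smad3 list and 23 in the Smad2 list. The like count over all genes was not made, so no excess of the collagens is read from it.

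**Figure D4:**
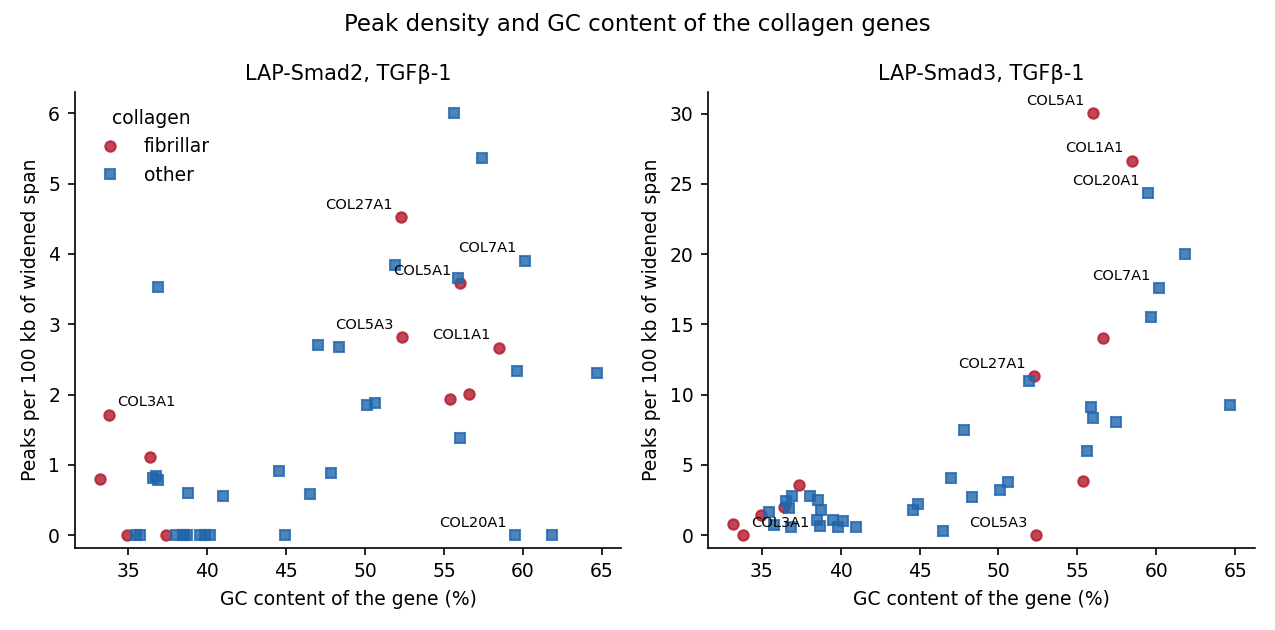
Peaks per 100 kb of widened span against the GC content of the gene (%) in the Smad2 list (left) and the Smad3 list (right), with 1 point per collagen gene and axes of different length. Genes under 40% GC lie below 4 peaks per 100 kb in both panels, while those above 50% spread up to 30.0 for Smad3.

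Most Smad2 and Smad3 peaks of the collagen genes did not overlap, as was the case over all genes. Of 90 Smad2 peaks, 14 overlapped a Smad3 peak (15.6%, 9.50 to 24.4), beside 21.6% of all Smad2 peaks in widened genes, a share inside this interval. The other way, 14 of 317 (4.42%, 2.65 to 7.28) overlapped a Smad2 peak, beside 9.34%, a share above this interval. Without COL5A1, 13 of 250 did so (5.20%, 3.06 to 8.69). By place, 247 of the 319 Smad3 peaks were centred in an intron, 24 in a coding exon, 3 in an untranslated exon, 23 upstream and 19 downstream of the gene. Smad2 had 55 of 90 in introns, 12 in coding exons and 7 in untranslated exons. Mean GC content of the windows was 64.2 ± 8.23% for Smad2 (SD over 90 peaks) and 59.9 ± 6.39% for Smad3 (SD over 317 peaks). All peaks in widened genes had 66.6% and 58.8%.

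Motif letters were counted on both strands of the 200 bp windows, beside all peaks of the same list in widened genes, weighted to the same GC content. CAGAC was in 141 of 317 Smad3 windows (44.5%, 39.1 to 49.98), beside 37.2%. COL5A1 carried much of this gap, since without it the count was 100 of 250 (34.1 to 46.2%), beside 36.7%. CAGAC was also in 37 of 90 Smad2 windows (41.1%, 31.5 to 51.4), beside 37.2%. GGCGC was in 32.8% of Smad3 windows, beside 40.01%, and in 44.4% of Smad2 windows, beside 53.5%. TGANTCA, the letters of AP-1 sites, was in 16 Smad3 windows (5.05%), beside 2.81%, and in 2 Smad2 windows. CANNTG, the E-box, was in 65.0% of Smad3 windows, beside 57.9%. GGCCG was in 35.6% and 54.4% of the windows of the lists, beside 37.8% and 58.4%. Among windows with few multi-copy bases, defined below, CAGAC was in 49.8% of collagen Smad3 windows and 43.6% of all such windows. Both shares are unweighted, so GC content may differ between them, and the collagen share includes COL5A1.

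Collagen peaks lay less often in multi-copy sequence than other peaks. A window was called multi-copy where more than 50% of its 20-mers occur over 10 times in hg38. In the Smad3 list 64 of 317 collagen windows were multi-copy (20.2%), beside 47.0% of all windows in widened genes, and in the Smad2 list 14 of 90 (15.6%), beside 31.8%. The highest-scored Smad3 peaks of all collagens were in such windows, in COL21A1 (fold 9.87, −log10 q 17.9) and COL19A1 (fold 11.2, −log10 q 17.0), both with every 20-mer multi-copy. Without multi-copy windows, the ratio to length-nearest genes was 3.09 for Smad3 and 1.58 for Smad2, or 1.75 and 1.23 beside genes nearest in length and span GC, and the number of genes with a Smad3 gene body peak fell from 33 to 21.

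Tandem repeats are a second kind of repeat that few 20-mer copies reveal. A window was called tandem where at least 80% of its bases equal the base at a fixed distance of 5 to 60 bp further on. By this measure 6 of 90 Smad2 windows (6.67%, 3.09 to 13.8) and 9 of 317 Smad3 windows (2.84%, 1.501 to 5.31) in collagen genes were tandem, beside 2.66% and 1.81% of all windows in widened genes. The COL23A1 repeat shown above was the only unique-by-20-mers collagen site found in 3 lists, with fold 8.90 in the list labelled LAP-Smad3 untreated, 9.03 in the Smad2 list and 6.16 in the Smad3 list. Its percentiles within these lists were 93.1, 99.2 and 92.4.

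In the untreated lists, the share of collagen genes with a peak was close to that of length-nearest genes. The list labelled LAP-Smad2 untreated had peaks at 17 genes (38.6%, 25.7 to 53.4), beside 22.0% of all genes and 36.7% of length-nearest genes, with 22 peaks in all. One gene, COL6A3, had a promoter peak, beside 5.66% of all genes, and 12 genes had a gene body peak (27.3%), beside 11.8% of all genes and 27.3% of length-nearest genes. The genes were COL21A1 with 4 peaks, COL4A1 and COL25A1 with 2 each, and COL2A1, COL4A2, COL4A4, COL6A1, COL6A3, COL6A6, COL14A1, COL18A1, COL19A1, COL20A1, COL23A1, COL24A1, COL26A1 and COL27A1 with 1 each. Of the 22 windows, 12 were multi-copy (54.5%, 34.7 to 73.1), beside 77.3% of all windows of this list in widened genes. Tandem were 6 (27.3%, 13.2 to 48.2), beside 12.01%. A GC content under 10% was found in 5, and 7 overlapped a peak of another list. Each treated list was overlapped by 4 (18.2%, 7.31 to 38.5), beside 33.7% for the Smad2 list and 40.2% for the Smad3 list.

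The list labelled LAP-Smad3 untreated had 5 peaks at 4 genes, COL5A1, COL18A1, COL23A1 and COL28A1, or 9.09% of genes, beside 9.14% of all genes and 11.6% of length-nearest genes. Promoter peaks were at 1 gene, beside 4.90% of all genes and 5.55% of length-nearest genes. Gene body peaks were at 4 genes (9.09%, 3.59 to 21.2), beside 2.29% of all genes. Of length-nearest genes 4.81% had one, and of genes nearest in length and span GC 5.36%, both inside this interval. GC content of the 5 peaks ran from 58.5 to 72.0%. None was multi-copy, beside 16.5% of all peaks of this list in widened genes. Tandem were 2, the repeats of COL5A1 and COL23A1, beside 5.89%. COL1A1, COL1A2, COL7A1 and COL12A1, which bore peaks after TGFβ-1, had none in either untreated list. These lists are shorter. Of all genes, 22.0% had a peak in the list labelled LAP-Smad2 untreated and 9.14% in the list labelled LAP-Smad3 untreated. A lack of untreated peaks is thus common over all genes, and no effect of treatment is read from it.

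The 33 genes that modify, fold, cut, cross-link or bind collagen were counted in the same way. Smad3 peaks were at 29 of them (87.9%, 72.7 to 95.2), beside 74.3% of all genes and 79.8% of length-nearest genes. Smad2 peaks were at 23 (69.7%, 52.7 to 82.6), beside 55.9% and 59.8%. Of genes nearest in length and span GC, 85.7% and 66.5% had one. All these backgrounds lay inside the intervals. Ratios of peaks to length-nearest genes were 1.17 (0.960 to 1.41) for Smad3 and 1.399 (1.06 to 1.81) for Smad2. The Smad3 ratio was thus below and the Smad2 ratio above that of the collagens. Beside genes nearest in length and span GC these ratios were 0.952 and 1.17. Promoter peaks were at 22 genes for Smad3 (66.7%, 49.6 to 80.2, beside 42.8%) and 17 for Smad2 (51.5%, 35.2 to 67.5, beside 38.2%). Of genes nearest in length and span GC, 50.5% and 43.0% had one, both inside these intervals. LOXL2, a lysyl oxidase that cross-links collagen, held 13 Smad3 peaks and 1 Smad2 peak, and ADAMTS14, a procollagen peptidase, held 7 and 10. SERPINH1, the collagen chaperone HSP47, held 4 Smad3 promoter peaks. DDR1, a collagen receptor, held 9 Smad3 and 5 Smad2 promoter peaks. LOX, CRTAP, PPIB and PLOD3 held no peak in any list.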

How the data were processed

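Anti-GFP ChIP-seq of LAP-Smad2 and LAP-Smad3 lines of MDA-MB-231, untreated or given TGFβ-1, was deposited as 4 peak lists, 1 per library. The authors used Bowtie2 for alignment of the single-end reads to the hg38 build, lengthened each read to 200 bp, and ran MACS2 at q 0.05. Tool versions, filters and the control library are not given in the sources used here. The deposited fold enrichment is the ratio of pileup to local background at the summit, and the −log10 p and −log10 q values are as the authors' peak caller wrote them, with the offset of the summit beside them. Depth per library is unknown.

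Peaks were assigned to GENCODE release 44 genes, which are on the same build, by a span widened by 10 kb and a promoter of 3 kb around any transcript start. Each collagen was set beside the 200 protein-coding genes nearest in length (100 shorter and 100 longer). Shares have Wilson and counts exact Poisson 95% intervals, which cover counting error only and treat peaks of 1 gene as independent. Sequence was read in 200 bp windows, and percentages at the same GC content use bins of 2%. The genes named were COL1A1, COL1A2, COL3A1, COL4A1, COL4A2, COL5A1 and COL7A1, those with a promoter peak in both treated lists, the 5 with most peaks in each treated list with ties, and those with a peak in an untreated list. The sequences by rule were shared promoter peaks and the promoter peak of highest −log10 q of each treated list, with none from chromosome 8, where COL14A1 lies. Other genes, among them COL5A3, COL9A3, COL11A1, COL22A1 and the processing genes named, were chosen after their values were seen. Members and lists were chosen with earlier results of these data known. Alternatives were other promoter widths, spans, backgrounds, overlaps, q cut-offs and windows. Multi-copy and tandem repeat measures, matching on span GC and leaving out COL5A1 were added after seeing the data. Scripts were tested on simulated data. Python 3.11.15, numpy 2.4.6, pandas 2.3.3, scipy 1.17.1, pysam 0.24.0, numba 0.67.0 and matplotlib 3.10.9 were used.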

Additional observations from a re-analysis of the deposited data

How the results depend on the processing

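With 1 library per condition, neither the spread between cultures nor the depth behind a list can be estimated, and a short list may have missed sites. No paired analysis was possible because each condition has 1 library and no replicates. Of the recomputed values, 162 stayed and 21 did not, judged for counts of genes by a factor of 1.5 and for ratios, shares and means by the 95% interval of the reported value. Without mostly multi-copy windows, the list labelled LAP-Smad2 untreated had peaks at 9 collagen genes in place of 17, promoter peaks at 0 in place of 1 and gene body peaks at 7 in place of 12, and its ratio to length-nearest genes was 1.92 in place of 0.847. The Smad2 ratio was then 1.58 in place of 1.20, the Smad3 ratio 3.09 in place of 1.86, the genes with a Smad3 gene body peak 21 in place of 33, and the mean GC content of Smad3 windows 61.2% in place of 59.9%. Against the main start alone, promoter peaks were at 0 genes in both untreated lists and at 17 in place of 29 in the Smad3 list, and with a promoter of 1 kb at 0 genes in the list labelled LAP-Smad3 untreated. Without COL5A1, the fibrillar ratio was 0 in place of 1.43 in that list and 1.58 in place of 3.10 for Smad3, and the ratio of all collagens for Smad3 was 1.51. Beside genes nearest in length and span GC, the Smad3 ratios were 1.38 for all, 2.09 for fibrillar and 1.14 for other collagens, and 1.17 for all without COL5A1. With these 3 changes together the ratio was 1.46 for Smad3 and 1.35 in the list labelled LAP-Smad2 untreated. Except where the construction removes members, windows or starts, the cause was not tested. A repeat of the sequence counts on windows with little soft-masked sequence was not run because the genome copy used here carries no repeat mask. Multi-copy, span GC and COL5A1 alternatives were chosen after seeing the data.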
